A study of Homo sapiens with 6 samples.

Results

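Cholesterol ester turnover was described in BT-549 cells through 8 genes: NCEH1, SOAT1, LIPA, NPC1, NPC2, NR1H2, NR1H3 and MYLIP. They were found by symbol, and all 8 are among the 25545 genes that the authors' table lists with TPM, a level that accounts for the length of the transcript and the size of the library. The set was chosen by the differences that these same libraries gave between BT-549 cells with NEAT1siRNA and those with CsiRNA, with NCEH1 as its lead. The differences of the 8 genes are therefore given as a description, with no p-value. NCEH1 had 72.7, 68.5 and 58.5 TPM with CsiRNA and 23.9, 31.3 and 25.6 TPM with NEAT1siRNA, where values are listed from replicate 1 to 3 here and throughout. NPC1 and, by a smaller difference, NPC2 were also lower in NEAT1siRNA cells, MYLIP was higher, and SOAT1, LIPA and NR1H2 overlapped between the groups. NR1H3 was lower too, but on only 8 to 15 reads per library.

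Cells keep excess cholesterol as cholesterol esters in lipid droplets. SOAT1 (acyl-CoA:cholesterol acyltransferase) of the endoplasmic reticulum makes these esters, and NCEH1 (neutral cholesterol ester hydrolase, also known as AADACL1 or KIAA1363) of the same membrane system splits them again. Esters that enter with lipoproteins are hydrolysed in the lysosome by LIPA, the lysosomal acid lipase. NPC2 then takes up the free cholesterol inside the lysosome and passes it to NPC1, the transporter in the lysosomal membrane. NR1H3 and NR1H2 encode LXRα and LXRβ, nuclear receptors that are activated by oxidised cholesterol and pair with RXR. MYLIP (also known as IDOL), a well-known LXR target, is a ubiquitin ligase that sends lipoprotein receptors to degradation. NCEH1 has been studied most in macrophages and is known to be abundant in aggressive breast cancer lines.

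BT-549 is a human TNBC (triple-negative breast cancer) line in long use. The cells were grown in RPMI1640 with serum and insulin and transfected with a control siRNA (CsiRNA) or with an siRNA against the long noncoding RNA NEAT1 (NEAT1siRNA), and RNA was isolated 48 h later, with 3 libraries in each group. The sample titles put tet- after the name of the line in both groups, and the same NEAT1siRNA was used in all 3 libraries, so effects of NEAT1 loss and of this siRNA on other transcripts cannot be told apart. The labels speak of triplicate cultures and say no more about how the replicates were made, so measures of spread and p-values refer to these libraries, and part of that spread may be technical.

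Reads per gene were recovered from the authors' tables and summed to between 15787055 and 20343909 per library. NEAT1, on chromosome 11 from 65422774 to 65445540 (GRCh38, plus strand), had 13.4, 7.68 and 10.8 TPM with CsiRNA and 4.36, 2.96 and 2.73 TPM with NEAT1siRNA, a mean of 31.5% of control (log2 fold change -1.41, standard error 0.14, limma adjusted p = 1.21e-07). The mesenchymal breast cancer markers were present, with all 8 (VIM, SPARC and COL1A2 among them) tested and a summed 1767 to 1984 TPM per CsiRNA library and 1612 to 1856 TPM per NEAT1siRNA library. Of these 8, FN1 (log2 fold change -0.47, limma adjusted p = 0.00116) and CDH2 (-0.34, limma adjusted p = 0.0186) were called lower and 6 were not called, with a list median of -0.15. The CDH2 call was lost without CsiRNA replicate 1 (-0.27), CsiRNA replicate 2 (-0.33) or NEAT1siRNA replicate 3 (-0.28). Of 10 luminal and epithelial markers, ERBB2 and KRT18 reached a mean of 1 TPM, ESR1 and PGR were at or near 0, and the list summed to between 7.61 and 8.88 TPM in every library. The 10 macrophage markers summed to between 0.254 and 0.699 TPM, at or near 0 throughout. The TPM of every gene depend on 4 short noncoding RNAs (RN7SK, RN7SL1, RN7SL2 and RPPH1) that held 64.4% to 68.1% of the TPM of a library.

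Differences are given as NEAT1siRNA minus CsiRNA on the log2(TPM + 1) scale, where changes of genes with low TPM are understated. Standard errors come from limma, fitted over all 10721 genes that averaged at least 1 TPM. Genes with a Benjamini-Hochberg adjusted p under 0.05 were called changed. This held for 1498 genes or 14.0%, with 963 or 8.98% lower and 535 or 4.99% higher, and the median over all genes tested was -0.04. Of the 8 genes, 7 were tested and NR1H3 was not, because its mean was under 1 TPM. Of the 7, NCEH1 and NPC1 passed the threshold as lower and MYLIP as higher, and 4 did not pass it. The groups did not overlap for 4 of the 7 (NCEH1, NPC1, NPC2 and MYLIP), against 30.3% of all genes tested. Since the genes were selected on this contrast, nothing is read from these counts.

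**Figure D1:**
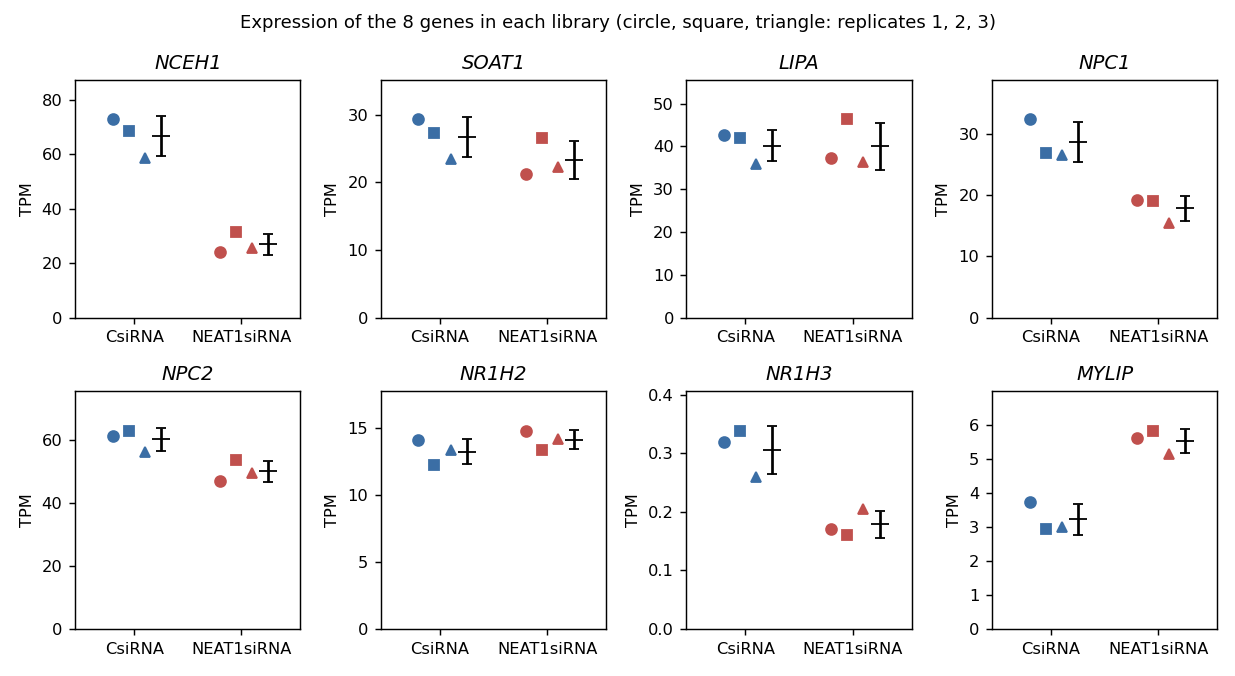
TPM of the 8 genes on the y axis (from 0, with its own scale for each gene) in the 3 CsiRNA libraries (blue) and the 3 NEAT1siRNA libraries (red), where the symbols mark replicates 1, 2 and 3 and the black bar gives the mean with its SD. NCEH1 had means of 66.6 and 26.9 TPM with a clear gap between the groups, while the LIPA libraries of both groups lay over each other at means of 40.2 and 40.0 TPM.

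In control cells, NCEH1 was the highest of the 8 genes by TPM, a scale that takes transcript length into account, with 66.6 ± 7.29 TPM (SD, n = 3). NPC2 followed with 60.0 ± 3.51 TPM, and the ranges of these 2 genes overlapped although NCEH1 was higher in each of the 3 libraries. LIPA stood at 40.2 ± 3.63 TPM, below NPC2 and above NPC1 in every library. NPC1 (28.6 ± 3.26 TPM) and SOAT1 (26.7 ± 2.97 TPM) did not differ beyond their spread. NR1H2 was lower at 13.2 ± 0.922 TPM, MYLIP lower again at 3.22 ± 0.458 TPM, and NR1H3 was lowest at 0.306 ± 0.0414 TPM. In NEAT1siRNA cells the order was different. NPC2 (49.9 ± 3.32 TPM) was then highest, LIPA (40.0 ± 5.51 TPM) came next and NCEH1 (26.9 ± 3.85 TPM) after it, with values that overlapped those of SOAT1 (23.3 ± 2.85 TPM). NPC1 (17.8 ± 2.08 TPM) was below SOAT1 in all 3 libraries.

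NCEH1 lies on chromosome 3 from 172630249 to 172711218 on the minus strand (GRCh38, protein coding). Its TPM in every NEAT1siRNA library was below its TPM in every CsiRNA library, and the highest silenced library (31.3 TPM) was well under the lowest control (58.5 TPM). The mean in NEAT1siRNA cells was 40.4% of that in CsiRNA cells. The log2 fold change was -1.28 (standard error 0.10), the 6th lowest among the 10721 genes tested. The reads behind these values were 6315, 6031 and 6272 in the control libraries and 2232, 3086 and 2242 after silencing. Counting error at that depth is a coefficient of variation of 1.27% and 1.99%, against 10.9% and 14.3% seen between libraries, so counting error is a small part of that spread. In bulk RNA, less NCEH1 RNA per cell and fewer cells that express it cannot be told apart.

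NEAT1siRNA replicate 2 was the highest of its group for NCEH1, and the same held for SOAT1, LIPA, NPC2 and MYLIP. In that library deviations of genes from the group mean followed transcript GC content (Spearman rho -0.73 over 10424 genes, which are not independent replicates), and in NEAT1siRNA replicate 1 they followed it the other way (rho 0.68). The transcripts of SOAT1, LIPA and NCEH1 have 39.5%, 40.0% and 40.6% GC. Those of MYLIP, NPC2 and NPC1 have 46.8%, 47.5% and 49.1%, and those of NR1H3 and NR1H2 have 58.4% and 61.4%. With the trend on GC content and length removed, NCEH1 differed by -1.26, NPC1 by -0.56 and MYLIP by 0.71 on the log2 scale. Without NEAT1siRNA replicate 2, NCEH1 differed by -1.39. Over the 16 alternative settings the log2 difference of NCEH1 ran from -1.39 to -1.20. Such ranges of the members describe how the values depend on the processing and are no independent support, since the members were chosen by the same libraries.

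**Figure D2:**
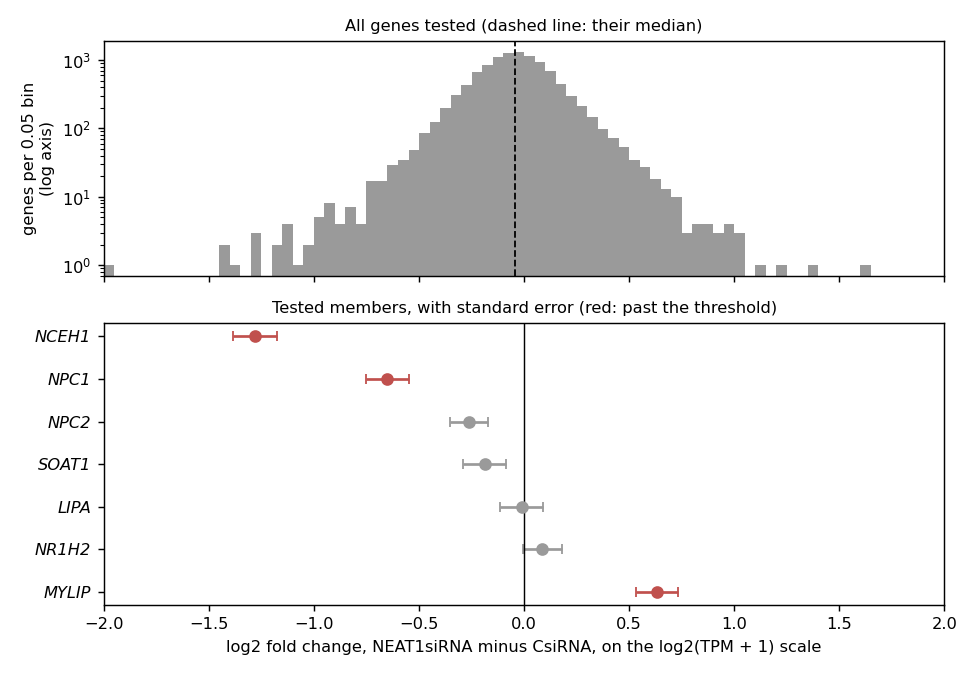
Top, number of genes (log axis) in bins of 0.05 along the log2 fold change of all 10721 genes tested, with their median of -0.04 as a dashed line. Bottom, log2 fold change with its standard error of the 7 tested members on the same x axis, red where past the threshold. NCEH1 at -1.28 lies in the sparse lower end, NPC1 at -0.65 and MYLIP at 0.63 lie to each side, and the other 4 lie between -0.26 and 0.09.

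The enzymes on either side of the ester cycle showed values unlike that of NCEH1. SOAT1 (chromosome 1, 179293714 to 179358680, plus strand), which makes the esters that NCEH1 splits, had 29.3, 27.3 and 23.5 TPM with CsiRNA and 21.2, 26.6 and 22.2 TPM with NEAT1siRNA. One silenced library lay inside the control range, and the log2 difference of -0.19 (standard error 0.10) did not pass the threshold. It did pass without NEAT1siRNA replicate 2 (-0.28) and with the GC trend removed (-0.17). LIPA (chromosome 10, 89213569 to 89414557, minus strand) had 42.6, 41.9 and 36.0 TPM with CsiRNA and 37.2, 46.3 and 36.4 TPM with NEAT1siRNA. The LIPA groups overlapped throughout, with a mean in NEAT1siRNA cells at 99.5% of control and a log2 difference of -0.01 (standard error 0.10). Its sign changed with the setting, from -0.12 to 0.05, and it passed the threshold in none of the 16 alternatives.

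Ratios within a library do not depend on how the libraries were scaled. The ratio of NCEH1 to SOAT1 TPM was 2.48, 2.51 and 2.50 in the control libraries and 1.13, 1.18 and 1.16 in the silenced libraries. These ratios were far closer to each other within a group than the TPM of either gene. The ratio of NCEH1 to LIPA was 1.71, 1.64 and 1.63 in control libraries and 0.642, 0.675 and 0.704 after silencing, so the order of these hydrolases was opposite in the groups. SOAT1 to LIPA gave 0.687, 0.651 and 0.651 with CsiRNA and 0.569, 0.573 and 0.609 with NEAT1siRNA, also without overlap but with a far smaller gap.

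**Figure D3:**
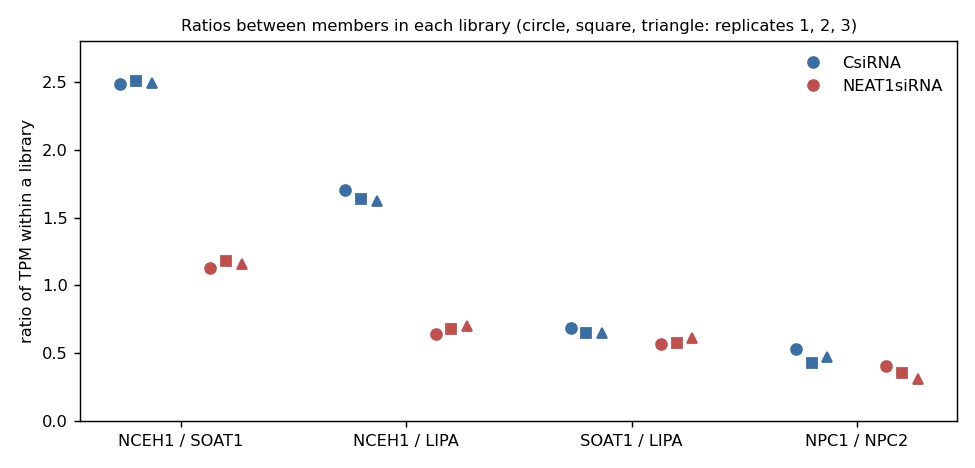
Ratio of the TPM of 2 genes within a library (y axis, from 0) for 4 pairs, with CsiRNA libraries in blue and NEAT1siRNA libraries in red and the symbols marking replicates 1, 2 and 3. NCEH1 to SOAT1 lay between 2.48 and 2.51 in control libraries and between 1.13 and 1.18 in silenced libraries, whereas NPC1 to NPC2 ran from 0.427 to 0.529 and from 0.313 to 0.408.

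Of 21 other esterases, acyltransferases and neutral lipases, 7 reached a mean of 1 TPM, and 1 of these was lower and 6 were not called (14.3% called, against 14.0% of all genes tested), with a median log2 difference of 0.02 against -0.04 for all genes tested. SOAT2, the intestinal and hepatic acyltransferase, and CES1, another cholesterol ester hydrolase, were at or near 0 in both groups and are named after their values were seen. The gene called lower was DGAT1, which makes triglycerides, with 6.83, 6.27 and 5.98 TPM with CsiRNA and 4.76, 4.38 and 4.87 TPM with NEAT1siRNA (log2 fold change -0.38, standard error 0.09, limma adjusted p = 0.00804), a call that was lost without CsiRNA replicate 1 (-0.33). Of 17 genes for the coat and assembly of lipid droplets, 6 were tested and 1 was called lower. This is 16.7%, against 14.0% of all genes called in either direction and 8.98% called lower. The gene was AUP1, a droplet protein of the degradation machinery (35.2 ± 2.68 to 28.7 ± 1.56 TPM, SD, n = 3, log2 fold change -0.29, limma adjusted p = 0.0372). The AUP1 call was lost without CsiRNA replicate 1 (-0.23), CsiRNA replicate 2 (-0.33) or NEAT1siRNA replicate 3 (-0.27). The other 5 were not called, among them the droplet coat gene PLIN2, named after its values were seen, at 54.2 ± 3.27 and 53.3 ± 2.87 TPM (SD, n = 3). The median of the droplet list was -0.11.

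Both genes of the pair that carries cholesterol out of the lysosome had lower TPM in NEAT1siRNA cells, NPC1 by more than NPC2. NPC1, the membrane transporter (chromosome 18, 23506184 to 23586506, minus strand), had 32.4, 26.8 and 26.6 TPM with CsiRNA and 19.1, 19.0 and 15.4 TPM with NEAT1siRNA. All 3 silenced libraries were below all 3 controls, the mean was 62.4% of control, and the log2 fold change was -0.65 (standard error 0.10). Over the 16 alternatives the difference ran from -0.70 to -0.56. NPC2, the soluble carrier (chromosome 14, 74476192 to 74494177, minus strand), had 61.2, 62.8 and 56.1 TPM with CsiRNA and 46.9, 53.5 and 49.4 TPM with NEAT1siRNA. These groups did not overlap either, but the mean was 83.2% of control and the log2 difference of -0.26 (standard error 0.09) did not pass the threshold. It passed in 9 of 16 alternatives, such as without CsiRNA replicate 3 (-0.31) or NEAT1siRNA replicate 2 (-0.31). The ratio of NPC1 to NPC2 was 0.529, 0.427 and 0.474 in control libraries and 0.408, 0.354 and 0.313 after silencing.

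For the lysosome beyond these members, the share of calls was near that of all genes. Of 40 genes for lysosomal enzymes and membrane proteins, 38 were tested, and 3 were lower, 1 was higher and 34 were not called (10.5% called, against 14.0% of all genes tested), with a median of -0.05 that is close to the -0.04 of all genes tested. CTSB, the protease cathepsin B, was at 492 ± 15.9 TPM with CsiRNA and 400 ± 11.2 TPM with NEAT1siRNA (SD, n = 3, log2 fold change -0.30, limma adjusted p = 0.0115). LAMP1, a major protein of the lysosomal membrane, went from 264 ± 9.59 to 220 ± 15.5 TPM (SD, n = 3, -0.26, limma adjusted p = 0.0381), and MCOLN1, the lysosomal calcium channel, from 11.6 ± 0.745 to 9.31 ± 0.778 TPM (SD, n = 3, -0.29, limma adjusted p = 0.0387). Each of these 3 calls was lost when single libraries were left out. Without CsiRNA replicate 1 the differences were -0.28 for CTSB, -0.23 for LAMP1 and -0.26 for MCOLN1, and without NEAT1siRNA replicate 3 they were -0.28, -0.20 and -0.27. CTSB (-0.29) and LAMP1 (-0.27) also lost it without CsiRNA replicate 2, and MCOLN1 (-0.29 and -0.26) without CsiRNA replicate 3 or NEAT1siRNA replicate 2. MCOLN1 was not called with quantile normalization (-0.23) or median centring (-0.24), nor LAMP1 without the trend on mean expression (-0.26).

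Of 25 other genes for sterol transport inside the cell, 20 were tested, 2 were higher and 18 were not called. This is 10% called, against 14.0% of all genes tested (4.99% higher), and the list median was 0.01. OSBPL10, an oxysterol-binding protein, had 1.12, 1.24 and 1.14 TPM with CsiRNA and 2.10, 2.62 and 1.98 TPM with NEAT1siRNA (log2 fold change 0.57, standard error 0.10, limma adjusted p = 0.000329). STARD4, a carrier of cholesterol between membranes, had 10.6, 9.64 and 9.52 TPM against 11.8, 15.1 and 12.1 TPM (0.35, standard error 0.10, limma adjusted p = 0.0203). Neither gene overlapped between the groups, and the STARD4 call was lost without CsiRNA replicate 2 (0.33) or NEAT1siRNA replicate 2 (0.25). With other scalings of the libraries more genes of this list were called higher, 5 with quantile normalization and 6 with median centring. Genes called higher also rose over all 10721 tested, from 535 to 1082 and 1158.

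The LXR genes themselves were expressed very unequally. NR1H2, which encodes the widely expressed LXRβ (chromosome 19, 50329653 to 50383388, plus strand), had 14.1, 12.3 and 13.4 TPM with CsiRNA and 14.8, 13.4 and 14.2 TPM with NEAT1siRNA. The groups overlapped, and the log2 difference was 0.09 (standard error 0.09), which passed the threshold in none of 16 alternatives (0.04 to 0.14). NR1H3, which encodes LXRα (chromosome 11, 47248300 to 47269033, plus strand), was listed at 0.320, 0.339 and 0.260 TPM with CsiRNA and 0.170, 0.161 and 0.204 TPM with NEAT1siRNA. These values did not overlap, but they rest on 14, 15 and 14 reads and on 8, 8 and 9 reads. The summed 43 reads have an exact 95% Poisson interval of 31.1 to 57.9 and the summed 25 reads one of 16.2 to 36.9, which overlap and cover counting error only. NR1H3 did not pass the threshold where it could be tested, with no filter on TPM (-0.15, standard error 0.03) or on recovered reads (-0.69, standard error 0.31). Its gene overlaps ACP2 on the opposite strand, which had a mean of 13.2 TPM, and whether the counting used strand is not given in the sources used here, so reads of NR1H3 and ACP2 cannot be told apart where the genes overlap. The same limit holds for LIPA with IFIT1, IFIT2 and IFIT3, for the end of NPC1 with WDR98 and for the start of NPC2 with ISCA2, each on the opposite strand.

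Of 16 partners and coregulators of LXR, 14 were tested, 1 was higher and 13 were not called. This is 7.14% called, against 14.0% of all genes tested, and the list median was 0.08. The gene called was RXRA, the partner with which LXR binds DNA, at 2.51, 1.95 and 2.04 TPM with CsiRNA and 3.15, 3.08 and 2.69 TPM with NEAT1siRNA (log2 fold change 0.33, standard error 0.10, limma adjusted p = 0.0290). These values did not overlap, but the call was lost without CsiRNA replicate 2 (0.28), CsiRNA replicate 3 (0.30) or NEAT1siRNA replicate 1 (0.30). The list gave 3 genes called higher with quantile normalization or median centring, 5 on recovered reads and 7 with the GC trend removed. Calls of higher genes also rose over all genes tested, from 535 of 10721 to 1082 with quantile normalization and 1158 with median centring. They were 1395 of 12708 on recovered reads and 1703 of 10424 with the GC trend removed. Of 23 LXR target genes other than MYLIP, 11 were tested, 2 were higher and 9 were not called, with a median of 0.10. Called were 18.2%, against 14.0% of all genes tested (4.99% higher). At an unadjusted limma p under 0.05 the share was also 18.2%, against 27.4% of all genes tested. Both shares rest on few genes. SCD, the stearoyl-CoA desaturase, went from 149 ± 10.7 to 209 ± 8.52 TPM (SD, n = 3, log2 fold change 0.49, limma adjusted p = 0.000353), and SREBF1, the regulator of fatty acid synthesis, from 14.7 ± 1.63 to 18.4 ± 1.79 TPM (SD, n = 3, 0.31, limma adjusted p = 0.0396). The SREBF1 call was lost without CsiRNA replicate 1 (0.36), CsiRNA replicate 2 (0.22) or NEAT1siRNA replicate 1 (0.24). Both genes are also targets of SREBP, so they do not belong to LXR alone. The cholesterol exporter ABCA1, the target most used to read LXR activity, was named after its values were seen. It was under the filter at 0.0895 ± 0.0253 TPM with CsiRNA and 0.103 ± 0.0136 TPM with NEAT1siRNA (SD, n = 3). ABCA1 was therefore not among the 11 tested, and its values overlapped between the groups.

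MYLIP (chromosome 6, 16129086 to 16148248, plus strand) was the one member called higher. It had 3.75, 2.93 and 2.98 TPM with CsiRNA and 5.60, 5.83 and 5.16 TPM with NEAT1siRNA. Every silenced library was above every control, the mean was 172% of control, and the log2 fold change was 0.63 (standard error 0.10). The reads behind it were 225, 178 and 221 with CsiRNA and 362, 398 and 312 with NEAT1siRNA. Over the 15 alternatives that tested it the difference ran from 0.59 to 0.84, and it was under the filter at a mean of 5 TPM. Of the receptors that MYLIP is known to degrade, VLDLR and LRP8, named after their values were seen, overlapped between the groups. VLDLR was at 6.93 ± 0.527 TPM with CsiRNA and 8.06 ± 0.807 TPM with NEAT1siRNA (SD, n = 3), and LRP8 at 7.30 ± 0.383 and 6.63 ± 0.521 TPM. These are transcript levels, and MYLIP acts on the receptor proteins, which were not analysed here.

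Of 21 lipoprotein receptors and partners of MYLIP, 15 were tested and 0 were called by limma on TPM, with a median of -0.06. At an unadjusted p under 0.05, 7 of the 15 passed (46.7%, against 27.4% of all genes tested), and limma on recovered reads (voom) called 6 of 16 (37.5%, against 21.8% of all genes so tested), 3 higher and 3 lower. These shares rest on few genes and were not tested against those of all genes. Over the alternatives the count of this list ran from 0 to 6.

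Genes of sterol sensing and synthesis gave the most calls of the 8 lists. Of 28 genes, 25 were tested, 6 were higher and 19 were not called, and the median was 0.14 against -0.04 for all genes tested, where 4.99% were called higher. INSIG1, the anchor that holds back SREBP processing, had 22.6, 20.5 and 18.9 TPM with CsiRNA and 30.8, 39.3 and 30.8 TPM with NEAT1siRNA (log2 fold change 0.67, standard error 0.10, limma adjusted p = 7.12e-05). IDI1, an enzyme of the isoprenoid steps, had 18.0, 19.4 and 16.3 TPM against 23.7, 34.7 and 26.5 TPM (0.62, standard error 0.11, limma adjusted p = 0.000446). HMGCS1, which makes HMG-CoA, went from 9.08 ± 0.495 to 13.2 ± 1.66 TPM (SD, n = 3, 0.49, limma adjusted p = 0.00139), and FDFT1, the squalene synthase, from 36.4 ± 1.77 to 49.0 ± 1.71 TPM (SD, n = 3, 0.42, limma adjusted p = 0.00213). None of these 4 overlapped between the groups or lost its call when a library was left out. The count of this list was 11 with quantile normalization, 12 with median centring, 11 on recovered reads and 13 with the GC trend removed. All of these were higher, and the count was 2 with no filter on TPM. Over all genes, higher calls rose too, from 535 of 10721 to 1082 (quantile normalization) and 1158 (median centring). They were 1395 of 12708 on recovered reads, 1703 of 10424 with the GC trend removed and 242 of 18531 with no filter. Over the 8 lists together 134 genes were tested once each, and 17 or 12.7% were called, near the 14.0% of all genes tested. Of these 17, 12 were higher and 5 lower, whereas of the 1498 genes called over all genes tested 535 were higher and 963 lower. With median centring, 28 were higher and 5 lower in the lists, against 1158 and 954 over all genes tested. This difference in direction was not tested.

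**Figure D4:**
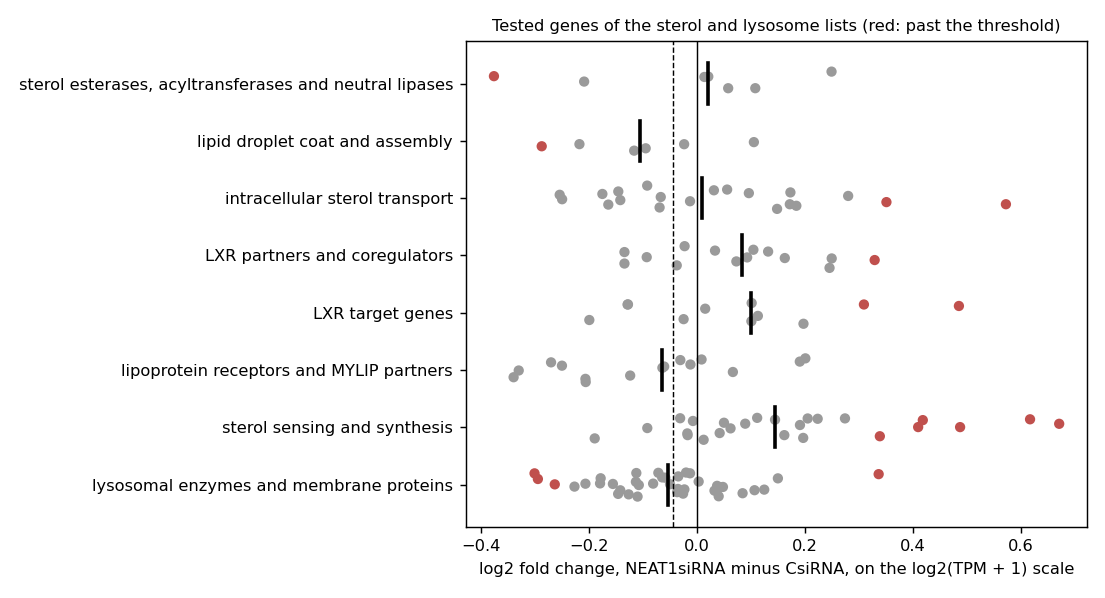
Log2 fold change (x axis, NEAT1siRNA minus CsiRNA) of the tested genes of 8 lists around cholesterol ester turnover, 1 dot per gene with the 8 members left out, red where past the threshold, with a black bar at the median of the list and a dashed line at the median of all genes tested. The list of sterol sensing and synthesis has a median of 0.14 and 6 genes called higher, and the lysosomal list lies around its median of -0.05 with 3 called lower and 1 higher.

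The genes whose profile over the 6 libraries was most like that of NCEH1, among 7236 others with a mean of at least 5 TPM, were SLC39A6 (Pearson r = 0.9991), POLE3 (0.9982), TMX2 (0.9973), IL1RAP (0.9969) and SHISA2 (0.9962), on log2(TPM + 1). These r describe 6 libraries that fall into 2 groups, and 271 genes had an r over 0.95. The size of the difference varied among them. SHISA2 went from 94.7 to 48.1 TPM, IL1RAP, a subunit of the interleukin-1 receptor, from 38.5 to 20.6 TPM, and SLC39A6, the zinc transporter LIV-1, from 59.4 to 32.6 TPM, whereas POLE3 and TMX2 in NEAT1siRNA cells were at 77.7% and 78.0% of control.

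The genes beside NCEH1 on the chromosome did not share its difference. FNDC3B, the nearest tested gene on one side (chromosome 3, 172039578 to 172401669, 229 kb away), had 63.7, 56.1 and 54.5 TPM with CsiRNA and 52.6, 60.0 and 50.02 TPM with NEAT1siRNA. ECT2 on the other side (172750682 to 172821474, 39.5 kb away) had 74.4, 71.1 and 63.5 TPM with CsiRNA and 58.9, 72.9 and 60.9 TPM with NEAT1siRNA. Both overlapped between the groups and were not called, with log2 differences of -0.10 (standard error 0.09, limma adjusted p = 0.548) and -0.12 (standard error 0.10, limma adjusted p = 0.467).

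**Figure D5:**
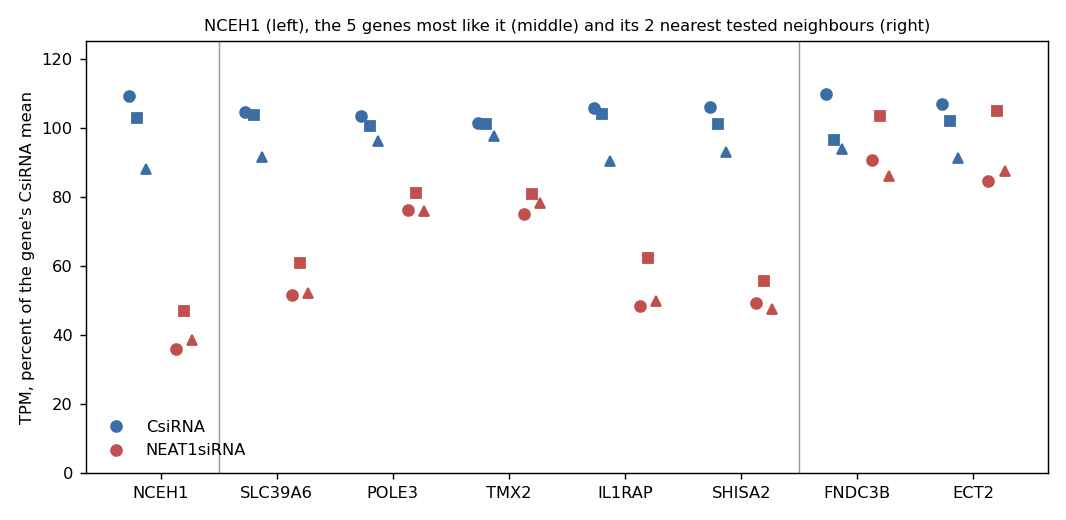
TPM in percent of the gene's own CsiRNA mean (y axis, from 0) for NCEH1, the 5 genes most like it and its 2 nearest tested neighbours, with CsiRNA libraries in blue and NEAT1siRNA libraries in red and the symbols marking replicates 1, 2 and 3. In NEAT1siRNA libraries NCEH1 averaged 40.4% of control, POLE3 and TMX2 averaged 77.7% and 78.0%, and FNDC3B and ECT2 averaged 93.3% and 92.2% with overlapping libraries.

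The promoters of the 3 members past the threshold are shown so that the gene that was higher can be set beside those that were lower. Each line gives the 250 bases before the RefSeq start of the gene, 5′ to 3′ on the strand of the gene, in the build GRCh38.p14, with CCAAT boxes (CCAAT, or ATTGG on the other strand) and GC boxes (GGGCGG, or CCGCCC on the other strand) in capitals.
NCEH1, chr3:172711068-172711317, minus strand: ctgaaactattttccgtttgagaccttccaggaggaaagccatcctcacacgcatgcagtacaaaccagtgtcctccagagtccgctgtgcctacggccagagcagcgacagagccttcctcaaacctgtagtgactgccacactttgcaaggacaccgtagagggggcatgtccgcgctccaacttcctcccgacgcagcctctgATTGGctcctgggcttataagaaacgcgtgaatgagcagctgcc
NPC1, chr18:23586507-23586756, minus strand: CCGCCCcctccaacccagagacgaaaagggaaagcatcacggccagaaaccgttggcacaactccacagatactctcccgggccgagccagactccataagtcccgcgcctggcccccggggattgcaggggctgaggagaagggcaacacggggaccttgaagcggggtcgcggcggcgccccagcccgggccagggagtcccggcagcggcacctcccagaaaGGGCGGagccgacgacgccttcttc
MYLIP, chr6:16128836-16129085, plus strand: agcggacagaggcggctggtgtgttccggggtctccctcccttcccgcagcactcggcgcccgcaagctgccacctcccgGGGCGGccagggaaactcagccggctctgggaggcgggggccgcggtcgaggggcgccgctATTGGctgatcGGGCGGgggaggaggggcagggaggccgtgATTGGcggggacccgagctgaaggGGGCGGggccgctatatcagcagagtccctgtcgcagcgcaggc
The NCEH1 window held 1 CCAAT box, 44 bases before the start, and no match to the GC box, with 56.0% GC. NPC1 held 2 GC boxes and no CCAAT match at 68.4% GC, and MYLIP held 2 CCAAT boxes (109 and 68 bases before the start) and 3 GC boxes at 73.6% GC. Of 35116 such windows in the RefSeq table, 32.0% held a CCAAT box and 42.6% a GC box, and their median was 58.0% GC.

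All 8 genes matched the table by symbol, with 14 windows because LIPA, NPC2 and NR1H3 have several starts. A CCAAT box was found in 7 of the 14 windows and a GC box in 10. Searched on both strands in the same windows, the E-box CACGTG (6.34% of all windows), the TATA box TATAAA (10.7%), the core CACCCCAC of the sterol response element (2.43%), the AP-1 site TGACTCA (4.20%) and exact AGGTCA direct repeats spaced by 4 bases, the LXR element (0.0142%), had no match in any of the 14. Only the exact letters given were searched, so variants of these motifs were not counted. These counts describe letters in short windows and not the binding of a factor.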

How the data were processed

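BT-549 cells transfected with CsiRNA or NEAT1siRNA were profiled by RNA-seq, with 3 libraries per group taken 48 h after transfection. The authors prepared stranded mRNA libraries, aligned reads to GRCh38 with STAR and compared groups with DESeq2 (versions of both are not given in the sources used here). They deposited TPM per gene and library, with no depth, and a table holding the mean normalized count of each gene over the 6 libraries, a signal after division by size factors, beside fold changes and p-values of their own comparison, which were not used. How TPM were computed is not given in the sources used here.

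TPM were transformed to log2(TPM + 1), genes averaging at least 1 TPM were kept, and groups were compared with limma 3.58.1 (lmFit, eBayes with trend, two-sided) in R 4.3.3, with Benjamini-Hochberg adjustment over 10721 genes and a threshold of 0.05. An exact two-sided permutation test of 3 against 3 libraries cannot go below p = 0.1 and was not used. Whole reads were recovered by joining TPM with the mean normalized count. Within 0.05 of a whole number were 99.8% of values of the 5043 genes with a mean up to 5, 98.6% of the 2535 genes from 5 to 50, 69.7% of the 4553 genes from 50 to 500 and 12.6% of the 6400 genes above, so reads of high genes are approximate. On these reads limma's voom called 2766 of 12708 genes with a mean of at least 10 reads. Coordinates, GC content and length came from GENCODE v44 by symbol (22278 genes by current and 783 by older symbol, 2484 unmatched), and promoters from RefSeq. Other steps used Python 3.11.15, numpy 2.4.6, pandas 2.3.3 and matplotlib 3.10.9. The fit was tested on simulated data.

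The 8 members and the gene lists, written from general knowledge, were chosen with earlier results of these data known. Besides the members and NEAT1, the genes named were up to 4 called genes per list with the largest change, the 5 genes most like NCEH1 and its nearest tested neighbours. SOAT2, CES1, PLIN2, ABCA1, VLDLR and LRP8, and the cell type markers singled out, were named after their values were seen. The result of 1 named gene is not reported here. Alternatives were a pseudocount of 0.1, testing without a filter, a minimum mean of 5 TPM, quantile normalization, median centring, TPM rescaled without the 4 short noncoding RNAs, no trend in eBayes, a block for the replicate number, single libraries left out, voom on recovered reads, and TPM with trends on GC content and length taken out (splines with 4 degrees of freedom, 97.2% of genes).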

Additional observations from a re-analysis of the deposited data

How the results depend on the processing

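Over 16 alternatives NEAT1, NCEH1 and NPC1 kept their direction and their call, as did MYLIP in the 15 that tested it. The 3 members were chosen by these same values, so this is no independent support. Beside 1498 changed genes (535 higher, 963 lower), there were 505 with no filter (242 and 263), 2766 with voom on recovered reads (1395 and 1371) and 3467 with the GC and length trend removed (1703 and 1764). Quantile normalization gave 1082 higher and 1109 lower, and median centring gave 1158 and 954. The median of all genes moved from -0.04 to 0.01 at most under these scalings. Leaving out 1 library gave 759 (without CsiRNA replicate 1) to 2083 (without NEAT1siRNA replicate 2) changed genes, and 838 without NEAT1siRNA replicate 3. The members called were 5 with the trend removed and 3 to 5 with a library left out, the 5 without NEAT1siRNA replicate 2. Beside 17 called genes of the 8 lists there were 5 with no filter, 32 with quantile normalization, 33 with median centring, 31 without the short noncoding RNAs, 38 with voom and 48 with the trend removed, and 10 (without CsiRNA replicate 1) to 22 with a library left out. Of 15 named genes of the lists, 11 lost their call with no filter. Libraries with the same replicate number did not deviate together (correlations -0.03, 0.25 and -0.11), so the numbers were not taken as pairs. With the replicate number as a block, 1640 genes, 4 members (NPC2 added) and 20 genes of the lists were called. Depth limits NR1H3, with 8 to 15 reads per library.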
